A study of Homo sapiens with 33 samples.

Results

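The thioredoxin and peroxiredoxin genes described here are 10 genes, picked by symbol in the 3 tables of knockout against control that the authors deposited. All 10 were listed in each table, of 14332 rows (A-375, total knockout), 13310 rows (UM-UC-3, total knockout) and 14160 rows (A-375, long-form knockout). The set was built around TXN2 because of its change in UM-UC-3, so that value is given as a description with no test. The other genes were added as members of the same enzyme system, with earlier results of these data known. By the known place of the main protein, 4 members are mitochondrial (TXN2, TXNRD2, PRDX3 and PRDX5), 5 are cytosolic (TXN, TXNRD1, PRDX1, PRDX2 and PRDX6) and 1, PRDX4, resides in the endoplasmic reticulum.

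Thioredoxins are small proteins that pass electrons from NADPH, by way of thioredoxin reductase, to oxidised cysteines of other proteins. Peroxiredoxins use those electrons to reduce hydrogen peroxide, and PRDX6 differs in drawing mainly on glutathione. Mitochondria and cytosol hold separate sets of these enzymes, and mitochondria are a main source of the peroxide they remove. GABP, the transcription factor edited in this study, is an ETS-family factor known for its part in the expression of many nuclear genes of mitochondrial proteins.

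The study sequenced RNA from 33 libraries of 2 cell lines, A-375 (melanoma, 20 libraries) and UM-UC-3 (bladder cancer, 13 libraries). GABPB1, the B1 subunit of GABP, was cut with Cas9 from a plasmid, and single GFP-positive cells were grown into clones. The total knockout joined clones lacking exons 2 to 9 (B1KO) with clones lacking exon 2 (B1X2KO). In A-375 it held 12 libraries from 9 clones, of which 4 libraries were B1KO and 8 B1X2KO. In UM-UC-3 it held 9 libraries from 8 clones, 4 of them B1KO and 5 B1X2KO. The long-form knockout (B1LKO) held 2 A-375 libraries from 2 clones lacking exon 9, which only the long form GABPB1L uses. Controls were clones edited at ROSA26, a safe-harbour locus (4 A-375 and 3 UM-UC-3 libraries), and unedited parental cells (2 and 1 libraries). Each table's name gives knockout over parental, with no list of the controls used. A UM-UC-3 value may therefore rest on 1 control library. Values of single libraries were not used, depth by library is unknown, and the error of each value is the standard error (SE) in the authors' tables. Some libraries share a clone, so the p-values measure the spread between libraries, part of which may be technical.

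The edited gene was checked first. GABPB1L changed by -10.60 ± 0.70 on the log2 scale in the A-375 total knockout, by -12.60 ± 0.71 in UM-UC-3 and by -12.79 ± 1.47 in the A-375 long-form knockout, by the authors' deposited tables. The short form GABPB1S changed by -9.81 ± 0.72 and -9.86 ± 2.70 in the total knockouts, by the authors' deposited tables. The entries named GABPB1L-DEX2 and GABPB1S-DEX2 went the other way. GABPB1L-DEX2 was higher by 13.61 ± 1.96 in A-375 and by 11.82 ± 1.46 in UM-UC-3, by the authors' deposited tables. GABPB1S-DEX2 was higher by 12.36 ± 1.88 and 10.15 ± 1.62, by the authors' deposited tables. The A-375 mean normalized count was 615 for GABPB1L-DEX2 and 130 for GABPB1L. These means run over knockout and control libraries of unequal number, so they do not compare levels between the groups. GABPB1 reads thus remained in the total knockouts under other entries. In the long-form comparison GABPB1S was higher by 13.95 ± 1.04, and GABPB1S-DEX2, which was higher with total knockout, changed by -12.00 ± 1.48, by the authors' deposited table. With 1 group near 0 these sizes have no fold meaning, but they show that the libraries labelled as controls of the long-form fit held little of the entry GABPB1S. In the total-knockout fit the A-375 controls did hold it, so the controls of the 2 A-375 fits differed in this entry, and long-form values below are those of the libraries as labelled. Of 8 melanocytic markers, 5 were listed in the A-375 total-knockout table, led by SOX10, with a mean normalized count of 14704 by the authors' deposited table. MLANA, TYR and DCT were not listed there. UM-UC-3 had 6 of the 8 listed, at a summed level of 16.9 per 1000000 of the table's sum against 874 in A-375, so being listed does not set the lines apart while the summed level differed. In UM-UC-3, 5 of 11 urothelial markers were listed, led by KRT18 at 8029 by the authors' deposited table. KRT19, KRT5, TP63 and the 3 uroplakins were not, and A-375 also had 5 of the 11 listed, so this list does not set the lines apart. CD68, a marker of macrophages that other cells also use in lysosomes, rose by 1.43 ± 0.34 (adjusted p 0.00111) in A-375 and by 1.29 ± 0.14 (adjusted p 1.00e-16) in UM-UC-3 with the total knockout, by the authors' deposited tables. Of the other blood and vessel markers, LYZ (-0.80 ± 0.71), PECAM1 (1.37 ± 0.67) and VWF (1.21 ± 0.44) were listed for the A-375 total knockout and did not pass, by the authors' deposited table, and none of these was listed for UM-UC-3. The leukocyte marker PTPRC and the endothelial marker CDH5 were listed in no table. The part of these markers in the results below was not tested.

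TXN2, mitochondrial thioredoxin, is the electron carrier of the mitochondrial system (chromosome 22, 36467036 to 36482030, minus strand, hg38, GENCODE 29). In UM-UC-3 its log2 fold change of knockout over control was -1.06 ± 0.11, or 0.481 times the control level, by the authors' deposited table. This is the value that chose the set, and 8 of 13310 genes had a lower Wald statistic. From the mean and the fold change, the implied level was 3575 normalized counts in the control and 1720 in the knockout if 1 parental control was used, and 2974 and 1431 if all 4 controls were used. TXN2 is thus a well-measured transcript in both groups. In the A-375 total knockout its log2 fold change was -0.57 ± 0.22 (95% interval -1.0 to -0.14), and it did not pass at an adjusted p of 0.0681 (DESeq2, Benjamini-Hochberg) by the authors' deposited table. It passed by the q-value of the authors' deposited table, 0.0383, where 8.1% of all genes were lower by that rule. The implied A-375 levels were 1518 normalized counts in the control and 1023 in the knockout with 2 controls assumed. In the long-form knockout TXN2 stood at 0.02 ± 0.11 (95% interval -0.20 to 0.25, adjusted p 0.956) by the authors' deposited table.

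The controls of the 2 A-375 fits were set beside each other for TXN2, since they differed in the GABPB1S entry. Per 1000000 of each table's summed count and with parental controls assumed, the implied control level of TXN2 was 78.0 in the total-knockout fit and 70.5 in the long-form fit. The implied total-knockout level was 52.6. With all controls assumed these levels were 71.8, 70.8 and 48.4. The tables were normalized separately and give no spread for a level, so no test was made.

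TXN, cytosolic thioredoxin (chromosome 9, 110243811 to 110256640, minus strand), fell in UM-UC-3. Its log2 fold change there was -0.46 ± 0.17 (adjusted p 0.0282) by the authors' deposited table. In the A-375 total knockout it was 0.20 ± 0.22 (adjusted p 0.602) and in the long-form knockout -0.19 ± 0.28 (adjusted p 0.829), by the authors' deposited tables. Neither A-375 value was larger than its standard error.

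The reductases feed both thioredoxins from NADPH and are selenoproteins. TXNRD2, the mitochondrial reductase (chromosome 22, 19875517 to 19941992, minus strand), passed in no table. Its log2 fold change was -0.01 ± 0.21 in the A-375 total knockout, -0.16 ± 0.14 in UM-UC-3 and -0.07 ± 0.21 in the long-form knockout, by the authors' deposited tables. Its 95% interval ran from -0.43 to 0.10 in UM-UC-3 and from -0.41 to 0.40 in the A-375 total knockout. TXNRD1, the cytosolic reductase (chromosome 12, 104215779 to 104350305, plus strand), passed in no table either. Its values were 0.61 ± 0.25 (adjusted p 0.0960) in the A-375 total knockout, 0.15 ± 0.22 in UM-UC-3 and 0.29 ± 0.29 in the long-form knockout, by the authors' deposited tables. The A-375 interval, 0.12 to 1.11, lies above 0 before adjustment for the number of genes. TXNRD1 overlaps EID3 on its own strand and an antisense gene, so its counts are uncertain.

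Among the mitochondrial peroxiredoxins, PRDX5 fell in UM-UC-3 and PRDX3 passed in no table. PRDX5, an atypical peroxiredoxin also found in peroxisomes and cytosol, changed by -0.65 ± 0.16 in UM-UC-3 (adjusted p 0.000368), 0.635 times the control level, by the authors' deposited table. Its implied UM-UC-3 level was 12279 normalized counts in the control and 7799 in the knockout with 1 control assumed. In A-375 it was at -0.21 ± 0.23 (adjusted p 0.599) in the total knockout and -0.17 ± 0.17 (adjusted p 0.720) in the long-form knockout, by the authors' deposited tables. PRDX3, the peroxidase that TXN2 reduces (chromosome 10, 119167703 to 119178833, minus strand), was at -0.08 ± 0.13, -0.30 ± 0.20 and 0.21 ± 0.15 in the A-375 total, UM-UC-3 total and long-form knockouts, by the authors' deposited tables. The adjusted p for PRDX3 in UM-UC-3 was 0.264.

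PRDX5 (chromosome 11, 64318088 to 64321811, plus strand) is read away from TRMT112, whose product activates several methyltransferases. Their outermost annotated starts lie 4 bases apart in GENCODE 29. TRMT112 also fell in UM-UC-3, with a log2 fold change of -0.52 ± 0.15 (adjusted p 0.00396), and was at -0.31 ± 0.20 (adjusted p 0.312) in the A-375 total knockout, by the authors' deposited tables. In the long-form knockout TRMT112 was at 0.17 ± 0.08 (adjusted p 0.420) and PRDX5 at -0.17 ± 0.17, by the authors' deposited table. The pair thus fell together in UM-UC-3, while in A-375 neither gene passed and their long-form values had opposite signs. GABP binds ETS sites, whose core is GGAA, and CCGGAAG is a longer form of it. RefSeq promoter windows (250 bases before to 50 after a start, GRCh38.p14) were found for 7 of the 10 members, in 11 windows. TXN2, PRDX1 and PRDX6 had no entry. CCGGAAG was searched on both strands, and 10.3% of all 35116 windows held it. Among the 7 members it was found for PRDX5 alone, 62 bases before its first RefSeq start and 75 bases before that of TRMT112. The first RefSeq starts of the 2 genes lie 131 bases apart, at 64318121 for PRDX5 and 64317990 for TRMT112. That match is not the only one near the pair. A second RefSeq window of TRMT112, from 64317510 to 64317809, held 3 other matches, where 1.74% of all windows held 2 or more. The PRDX5 match is shown because it lies between the first RefSeq starts of 2 genes that fell together in UM-UC-3. The stretch is chr11:64318048-64318077, plus strand, with CCGGAAG in capitals.
PRDX5: aggcgtgggtcCCGGAAGctctgttctgcg
These letters are a description, and binding at them was not measured here.

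The 3 cytosolic peroxiredoxins went different ways. PRDX1, the most abundant member per length in every table (chromosome 1, 45511036 to 45523047, minus strand), fell in UM-UC-3, at -0.61 ± 0.13 (adjusted p 3.22e-05) or 0.657 times the control level, by the authors' deposited table. Its implied level went from 20285 to 13319 normalized counts with 1 control assumed. In A-375 it was at 0.29 ± 0.21 (adjusted p 0.383) in the total knockout and 0.26 ± 0.23 (adjusted p 0.692) in the long-form knockout, by the authors' deposited tables. PRDX1 overlaps MMACHC on the opposite strand, and no source used here says whether counting used strand.

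PRDX2 (chromosome 19, 12796820 to 12801859, minus strand) rose in the A-375 total knockout. Its log2 fold change was 0.72 ± 0.13 (adjusted p 1.99e-05), or 1.64 times the control level, by the authors' deposited table. The implied level went from 3116 to 5116 normalized counts with 2 controls assumed. In the long-form knockout it was at 0.23 ± 0.10 (adjusted p 0.365) by the authors' deposited table. For UM-UC-3 PRDX2 had few counts, with a mean normalized count of 67.1, and its value of 0.85 ± 0.39 (adjusted p 0.0872) did not pass by the authors' deposited table. PRDX2 overlaps HOOK2 on its own strand and an antisense gene, so its counts are uncertain.

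PRDX6 (chromosome 1, 173477266 to 173488807, plus strand) passed in no table. It was at 0.14 ± 0.13 in the A-375 total knockout, -0.19 ± 0.09 (adjusted p 0.0968) in UM-UC-3 and 0.25 ± 0.09 (adjusted p 0.182) in the long-form knockout, by the authors' deposited tables. PRDX4 (chromosome X, 23664262 to 23686399, plus strand), which reduces peroxide made during protein folding in the endoplasmic reticulum, rose in the A-375 total knockout. Its value was 0.48 ± 0.17 (adjusted p 0.0441) there, -0.18 ± 0.13 (adjusted p 0.283) in UM-UC-3 and -0.04 ± 0.15 in the long-form knockout, by the authors' deposited tables. GENCODE 29 names 17 pseudogenes after these members, 7 of them after TXN and 4 each after PRDX2 and PRDX3. None was listed in the tables, and reads from such copies cannot be told apart here.

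**Figure D1:**
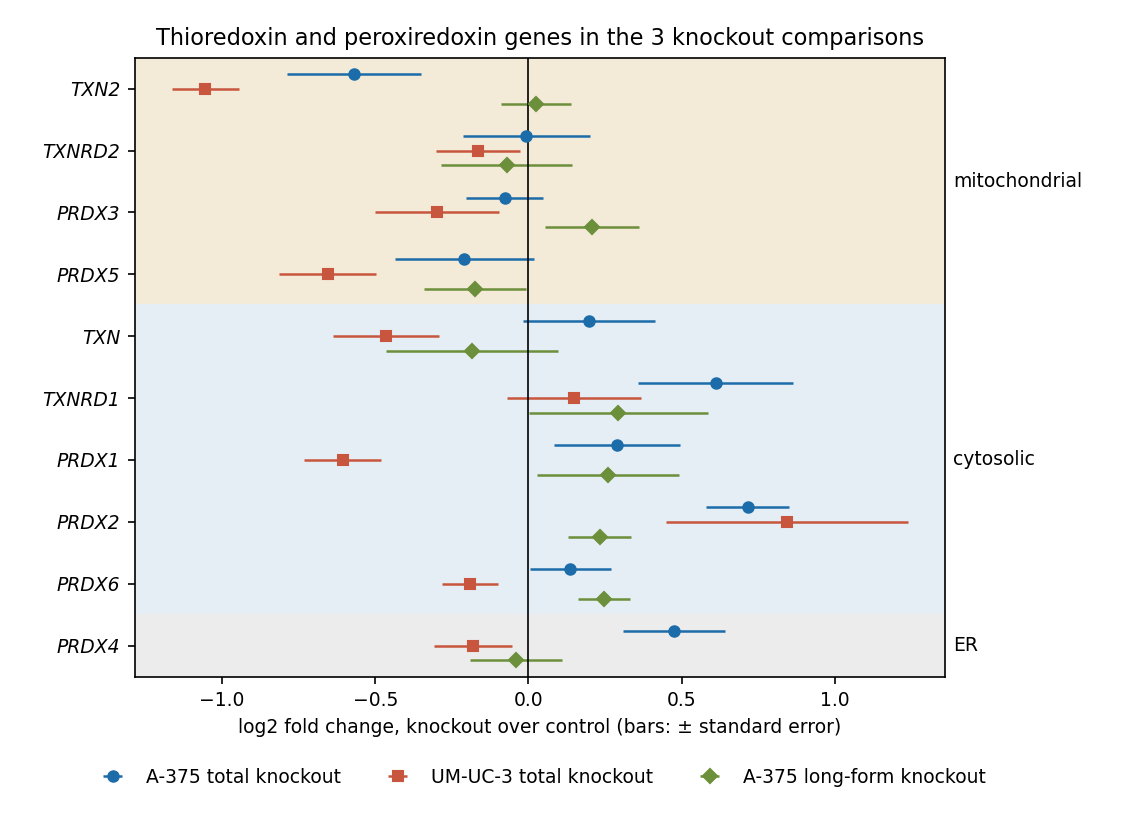
Log2 fold change of knockout over control (horizontal axis) for each of the 10 genes (vertical axis, shaded by compartment; ER, endoplasmic reticulum), in the 3 comparisons of the authors' deposited tables, with bars of 1 standard error. TXN2 has the lowest UM-UC-3 value, -1.06, while its long-form value is 0.02; PRDX2 has the highest value in both total knockouts.

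Set side by side, the comparisons gave different counts. In the A-375 total knockout 2 of 10 members were higher (PRDX2 and PRDX4) and 0 lower, where 5.07% of all genes were higher and 5.74% lower. After centring on the table's median, the split over all genes went from 726 higher and 823 lower to 907 and 647, and the members' counts were 2 and 0 as before. At an unadjusted p under 0.05 by DESeq2, 4 of 10 passed (TXN2, TXNRD1, PRDX2 and PRDX4), where 25.3% of all genes did. By the q-value 2 members were higher, where 7.08% of all genes were, and 1 lower, where 8.1% were. In UM-UC-3, of the 9 members other than TXN2, 3 were lower (TXN, PRDX1 and PRDX5) and 0 higher, where 14.2% of all genes were lower, 17% higher and 31.1% called in either direction. At an unadjusted p under 0.05, 5 of these 9 passed (TXN, PRDX1, PRDX2, PRDX5 and PRDX6), where 41.2% of all genes did. By the q-value 1 member, PRDX2, was higher, where 22.7% of all genes were, and 4 were lower, where 18.8% were. In the long-form knockout 0 of 10 passed, where 0.904% of all genes did so by DESeq2 by the authors' deposited table. At an unadjusted p under 0.05, 2 of 10 did (PRDX2 and PRDX6), where 10.9% of all genes did. The 2 A-375 comparisons may share control libraries, so their values are given beside each other with no test between them.

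Mitochondrial and cytosolic members were compared by their medians, with no test. In the A-375 total knockout the 4 mitochondrial log2 fold changes ran from -0.57 to -0.01 (median -0.14). The 5 cytosolic ones ran from 0.14 to 0.72 (median 0.29), so the ranges of the point values did not overlap. The nearest values, TXNRD2 at -0.01 ± 0.21 and PRDX6 at 0.14 ± 0.13, overlapped within their standard errors. A split by compartment was thus not shown. The median over all genes was -0.05, and of the 9 mitochondrial and cytosolic genes 1, PRDX2, passed on its own. In UM-UC-3 the mitochondrial values ran from -1.06 to -0.16 (median -0.48) and the cytosolic ones from -0.61 to 0.85 (median -0.19), with a median of 0.03 over all genes. Here the ranges overlapped, since TXN and PRDX1 lay below PRDX3 and TXNRD2. In the long-form knockout the mitochondrial values ran from -0.17 to 0.21 (median -0.02) and the cytosolic ones from -0.19 to 0.29 (median 0.25). The mitochondrial minus cytosolic median was -0.43, -0.29 and -0.27 in the 3 comparisons. Without TXN2 the UM-UC-3 difference was -0.11. All 4 mitochondrial values were below 0 in both total knockouts, but these signs were not all stable. TXNRD2 in A-375 was at -0.01 ± 0.21 and turned to 0.0463 after centring on the table's median. The count also includes TXN2 in UM-UC-3, the value that chose the set. Differences among the 4 were not tested.

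The change in UM-UC-3 minus that in A-375 was tested for the 9 members other than TXN2, as the difference of log2 fold changes over its standard error, with a normal p adjusted over 12640 genes (Benjamini-Hochberg). The cell lines share no library. PRDX1 differed by -0.90 ± 0.24 (adjusted p 0.00644) and PRDX4 by -0.66 ± 0.21 (adjusted p 0.0257), both lower in UM-UC-3. These 2 of 9 compare with 4.12% of all genes lower by this rule, 6.32% higher and 10.4% in either direction. TXN differed by -0.66 ± 0.28 (adjusted p 0.100), PRDX6 by -0.33 ± 0.16 (adjusted p 0.175) and PRDX5 by -0.44 ± 0.28 (adjusted p 0.307), and none of these passed. For TXNRD1 the difference was -0.46 ± 0.33, for PRDX3 -0.22 ± 0.24 and for TXNRD2 -0.16 ± 0.25. PRDX2 was the 1 member with a difference above 0, at 0.13 ± 0.42 (95% interval -0.69 to 0.95). For TXN2, described only, it was -0.49 ± 0.24. PRDX1 and PRDX4 thus parted between the cell lines, while for the other members tested a difference was not shown.

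**Figure D2:**
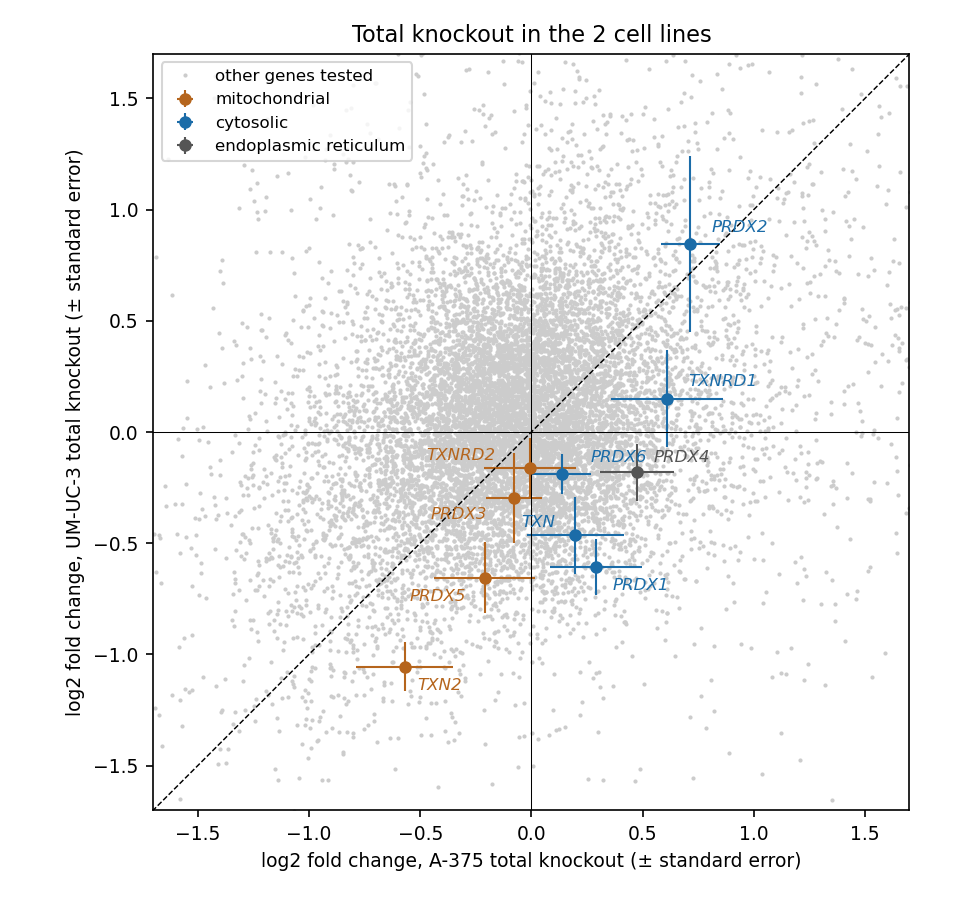
Log2 fold change in the total knockout of A-375 (horizontal axis) against UM-UC-3 (vertical axis), with bars of 1 standard error for the 10 members and grey points for other genes tested (those beyond the axes are not drawn); the dashed line marks equal change. All members but PRDX2 lie below the line, and PRDX1, at 0.29 and -0.61, lies farthest from it.

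Transcript levels were compared between genes as the mean normalized count per kilobase of the principal transcript and per 1000000 of the table's sum, which averages knockout and control libraries. PRDX1 had the highest level, 311 in the A-375 total-knockout table and 268 in UM-UC-3. TXN2 was low, at 32.4 and 25.9, and TXNRD2 lower, at 13.7 and 13.4. TXN, the cytosolic counterpart of TXN2, stood at 209 and 179. PRDX5 was at 149 and 218, PRDX3 at 109 and 118, and PRDX4 at 106 and 135. PRDX6 was at 198 in A-375 and 97.6 in UM-UC-3. The low levels of TXN2 and TXNRD2 were thus seen in both lines.

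PRDX2 and TXNRD1 differed most between the lines in level. PRDX2 stood at 252 in the A-375 total-knockout table and 180 in the long-form table, and at 1.60 in UM-UC-3, a 157-fold difference between the 2 total-knockout tables. It was the second most abundant member in the former and the least abundant in UM-UC-3. TXNRD1 went the other way, at 93.9 and 73.1 in A-375 and 239 in UM-UC-3, 2.55 times the A-375 total-knockout level. The other 8 members lay within 2.03-fold between the total-knockout tables. The tables give no spread for a level and were normalized separately, so neighbours in this order cannot be separated and no test was made. With the longest transcript in place of the principal one, PRDX2 moved from rank 2 to rank 5 in A-375.

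**Figure D3:**
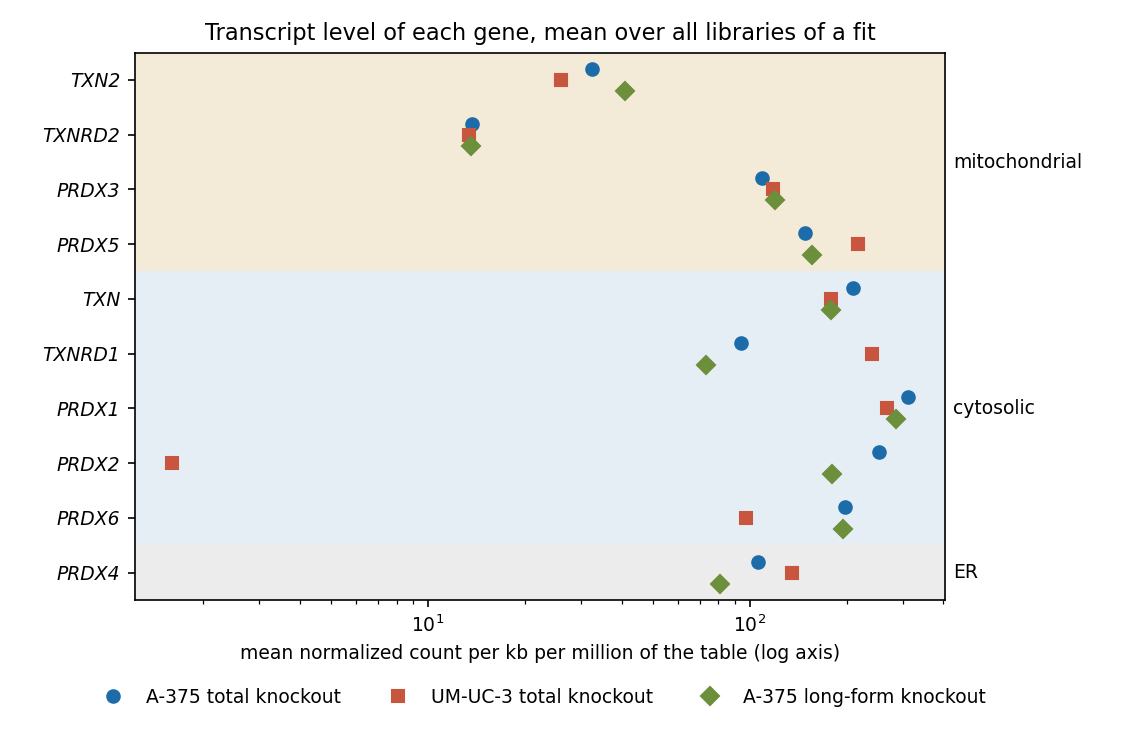
Mean normalized count per kilobase per 1000000 of the table's sum (horizontal log axis) for each gene (vertical axis, shaded by compartment), 1 point for each of the 3 comparisons, averaged over knockout and control libraries. PRDX2 in UM-UC-3, at 1.60, lies apart from every other point. TXNRD2 is the lowest gene in both A-375 comparisons, at 13.7 for the total knockout and 13.6 for the long-form knockout.

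Genes that work with the thioredoxin system were described by 6 lists with 66 genes, chosen by function. With total knockout in A-375, 7 of 65 partner genes measured were higher and 2 lower, where 5.07% and 5.74% of all genes were. In UM-UC-3, 8 of 63 were higher and 10 lower, where 17% and 14.2% of all genes were. The UM-UC-3 shares are near the background. In A-375 the share of higher genes lay above the background and that of lower genes below it, with no test of the lists. In the long-form knockout 0 of 65 were higher and 1 lower, where 0.664% of all genes were lower. At an unadjusted p under 0.05 by DESeq2, 6 of 65 passed in the long-form knockout, where 10.9% of all genes did. The regulators and repair partners had 3 of 15 higher and 0 lower in the A-375 total knockout (median 0.30), where 5.07% and 5.74% of all genes were. These were SRXN1, which reactivates over-oxidised peroxiredoxins (0.61 ± 0.20, adjusted p 0.0325), SESN1, a stress-induced sestrin (0.83 ± 0.27, adjusted p 0.0262), and RRM2B, a ribonucleotide reductase subunit (0.89 ± 0.29, adjusted p 0.0289), by the authors' deposited table. SESN1 and RRM2B are known targets of p53. In UM-UC-3 the same list had 2 of 15 higher and 1 lower (median 0.13), where 17% and 14.2% of all genes were. TXNIP, which binds and inhibits thioredoxin, rose by 1.26 ± 0.22 (adjusted p 2.91e-07) there by the authors' deposited table. MAP3K5, the kinase ASK1 that thioredoxin holds inactive, rose by 0.44 ± 0.18 (adjusted p 0.0417), and RRM1, the large subunit of ribonucleotide reductase, fell (-0.54 ± 0.17, adjusted p 0.00963), by the authors' deposited table. In the long-form knockout TXNIP was the 1 partner gene that passed, and it fell there (-1.71 ± 0.34, adjusted p 0.000602) by the authors' deposited table. In the A-375 total knockout it was at 0.26 ± 0.56 (adjusted p 0.812) by the authors' deposited table. TXNIP thus passed in opposite directions in UM-UC-3 and in the long-form libraries, which differ in both cell line and edit.

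Other proteins with a thioredoxin fold had 1 of 15 higher and 1 lower in the A-375 total knockout, and 1 higher and 4 lower in UM-UC-3 (medians 0.10 and 0.01). Over all genes 5.07% were higher and 5.74% lower in A-375, and 17% and 14.2% in UM-UC-3. TXNDC12, a thioredoxin-like protein of the endoplasmic reticulum, fell in both, at -0.54 ± 0.19 (adjusted p 0.0485) and -0.33 ± 0.12 (adjusted p 0.0257), by the authors' deposited tables. TXNDC16 rose in UM-UC-3 (1.43 ± 0.23, adjusted p 4.27e-08), and TXNDC5 (-0.63 ± 0.15, adjusted p 0.000243), TXNDC17 (-0.65 ± 0.18, adjusted p 0.00183) and the spliceosomal TXNL4A (-0.54 ± 0.16, adjusted p 0.00425) fell there, by the authors' deposited table. TXNDC15 rose in the A-375 total knockout (0.53 ± 0.19, adjusted p 0.0491) by the authors' deposited table.

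The glutathione and glutaredoxin system, the parallel route of peroxide removal, had 2 of 16 genes higher and 0 lower in the A-375 total knockout (median 0.13), where 5.07% and 5.74% of all genes were. GLRX, cytosolic glutaredoxin, rose by 0.75 ± 0.17 (adjusted p 0.000401) and the secreted peroxidase GPX3 by 2.90 ± 0.88 (adjusted p 0.0164), by the authors' deposited table. For UM-UC-3, 1 of 15 was higher and 3 lower (median -0.09), where 17% and 14.2% of all genes were. GCLC, which makes the first step of glutathione synthesis, rose by 0.68 ± 0.16 (adjusted p 0.000299), by the authors' deposited table. The peroxidase GPX1 changed by -0.85 ± 0.13 (adjusted p 8.26e-09), GSTP1 by -0.55 ± 0.16 (adjusted p 0.00397) and GPX8 by -0.54 ± 0.21 (adjusted p 0.0358), by the authors' deposited table. SOD1, which turns superoxide into hydrogen peroxide in the cytosol, passed both ways: it rose by 0.48 ± 0.16 (adjusted p 0.0335) in A-375 and changed by -0.54 ± 0.11 (adjusted p 3.17e-05) in UM-UC-3, by the authors' deposited tables. Of the dismutases and catalase, SOD1 was the 1 gene of 5 measured in A-375, and of 4 in UM-UC-3, that passed, against 5.07% of all genes higher in A-375 and 14.2% lower in UM-UC-3. Mitochondrial SOD2 was at 0.67 ± 0.25 (adjusted p 0.0617) in A-375 by the authors' deposited table.

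NADPH feeds both reductases. Its cytosolic suppliers had 0 of 5 higher and 0 lower in the A-375 total knockout, where 0 of 5 had an unadjusted p under 0.05 by DESeq2, and 25.3% of all genes did. In UM-UC-3, where 17% of all genes were higher and 14.2% lower, 2 of 5 were higher and 0 lower, malic enzyme ME1 (0.63 ± 0.11, adjusted p 4.60e-07) and IDH1 (0.42 ± 0.17, adjusted p 0.0437), by the authors' deposited table. The mitochondrial suppliers had 1 of 9 lower and 0 higher in A-375, where 5.74% and 5.07% of all genes were. This was NNT, the transhydrogenase of the inner membrane (-0.73 ± 0.14, adjusted p 1.79e-05), by the authors' deposited table. For UM-UC-3 NNT was at 0.06 ± 0.23 (adjusted p 0.871), by the authors' deposited table. There, against the same 17% and 14.2%, 2 of 9 were higher, ALDH1L2 (1.27 ± 0.42, adjusted p 0.0108) and NADK2 (0.54 ± 0.14, adjusted p 0.00106), and 1 was lower, ME3 (-0.68 ± 0.19, adjusted p 0.00243), by the authors' deposited table. ALDH1L2 had few counts in UM-UC-3, with a mean normalized count of 73.5.

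**Figure D4:**
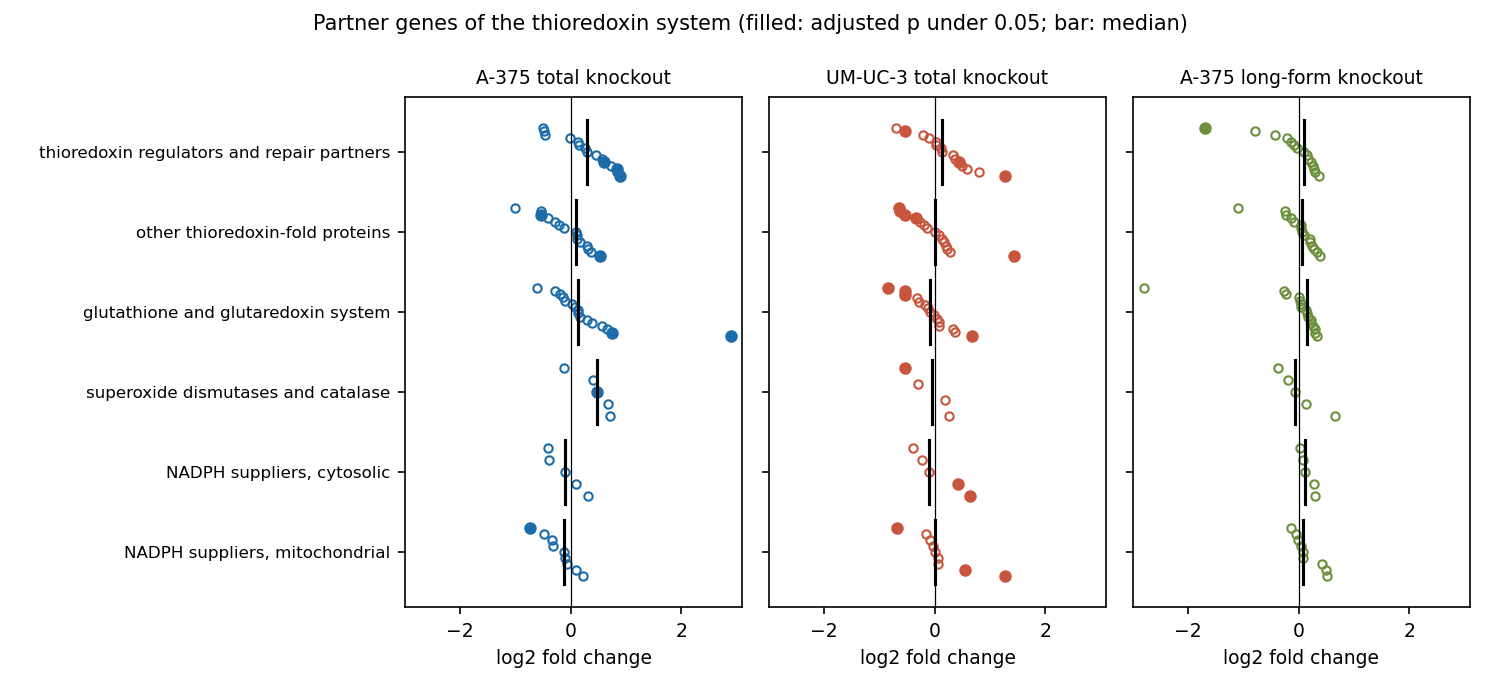
Log2 fold change (horizontal axis) of each partner gene, 1 row for each of 6 lists and 1 panel for each comparison; filled points have an adjusted p under 0.05 by the authors' deposited tables and black bars are list medians. In the long-form panel 1 point is filled, TXNIP at -1.71, and in UM-UC-3 filled points lie on both sides of 0.

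The genes whose 3 log2 fold changes lay nearest to those of TXN2, by Euclidean distance over the 3 comparisons among 10502 genes whose mean normalized count was 100 or more in each table, were E2F1, ZNF511, SLC35C2, ARL6IP4 and TRAPPC4. Their distances ran from 0.07 to 0.17 on the log2 scale. E2F1, a cell-cycle transcription factor, was at -0.50 ± 0.48, -1.03 ± 0.27 and 0.01 ± 0.27 in the A-375 total, UM-UC-3 total and long-form knockouts, by the authors' deposited tables. TRAPPC4, a vesicle-tethering subunit, was at -0.55 ± 0.28, -1.22 ± 0.13 and 0.01 ± 0.11 by the authors' deposited tables. The nearness rests on 3 values, and each distance is smaller than the standard error of TXN2 in the A-375 total knockout.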

How the data were processed

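RNA was sequenced from 33 libraries of 2 cell lines, grouped by the titles. The submitters' processing notes name HISAT2, SAMtools, StringTie, DESeq2 and build hg38 and give no versions. No source used here gives the annotation, gene filter, design formula or controls of a fit. The signal column holds counts divided by size factors and averaged over libraries, per the file headers. The log2 columns hold the authors' fold change and its standard error, the score column their deposited Wald statistic, and the p-value columns the authors' p, its Benjamini-Hochberg adjustment and a q-value. Adjusted p-values recomputed from the deposited p differed by at most 6.98e-05.

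Calls used the deposited adjusted p, under 0.05, over all genes of the table. Intervals are 95% normal intervals from the deposited standard error. Differences between cell lines used genes whose mean normalized count was 10 or more in both tables, by code tested on simulated data first (scipy 1.17.1, statsmodels 0.14.6). Group levels were implied from the mean, the fold change and the library numbers. Places and transcript lengths came from GENCODE 29 and promoters from RefSeq (GRCh38.p14).

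The members and lists were chosen with earlier results of these data known. Named genes are the members, GABPB1 entries, up to 4 called genes with the smallest adjusted p in each list and table, the 5 genes nearest to TXN2, and genes starting within 1 kb of a member on the opposite strand (TRMT112, and THSD8, which was not listed in the tables). Some partner and neighbouring genes are not reported here and enter no list count. Genes named beside these were chosen after their values were seen. Alternatives were centring, a filter on means, the q-value, a threshold of 0.01, other memberships, controls, motifs and transcript lengths, the last chosen after seeing the data.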

Additional observations from a re-analysis of the deposited data

Results flagged for a closer look

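The change with total knockout differed between UM-UC-3 and A-375 (adjusted p under 0.05 over 12640 genes) for 2 of 9 members and 7 of 63 partner genes tested. PRDX1 differed by -0.90 and PRDX4 by -0.66 on the log2 scale, as UM-UC-3 minus A-375. Of the partner genes, 4 were lower in UM-UC-3 than in A-375: SOD1 (-1.02, adjusted p 6.38e-05), GPX1 (-0.97, adjusted p 0.0104), SESN1 (-0.95, adjusted p 0.0359) and GSTP1 (-0.84, adjusted p 0.00281). The other 3 were higher in UM-UC-3: TXNDC16 (1.65, adjusted p 0.00716), NNT (0.79, adjusted p 0.0393) and GCLC (0.78, adjusted p 0.0226). Over all genes 10.4% passed this test, so the partner count is near the background. The UM-UC-3 controls may be 1 parental library, whose part in these differences was not tested.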

How the results depend on the processing

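No paired analysis was possible because the deposited tables hold no value per library, and for the same reason no library could be left out in turn. Single members and their differences between cell lines were recomputed under centring, the filters on means, the q-value and the 0.01 threshold. Direction and call were the same in 134 of 142 recomputed values. Much of this was fixed in advance, since only centring changes a fold change and the 0.01 threshold can only lose calls. Under centring, the 1 setting where direction could turn, 36 values stayed the same. In that setting 1 value turned direction: TXNRD2 in the A-375 total knockout, at 0.0463. TXN2 in A-375 (q 0.0383), PRDX2 in UM-UC-3 (q 0.0353) and PRDX6 in UM-UC-3 (q 0.0392) passed by the q-value, so the A-375 count of lower members became 1 and the UM-UC-3 count of higher members 1. PRDX6 in UM-UC-3 also passed after centring (adjusted p 0.0498). At a threshold of 0.01, the A-375 count of higher members fell to 1 and the count of members differing between cell lines to 1, and TXN in UM-UC-3 was lost. At that threshold 705, 2710 and 62 genes were called in the A-375 total, UM-UC-3 and long-form tables, against 1549, 4145 and 128. By the q-value, 9 of 65 partner genes were higher and 3 lower in A-375, where 7.08% and 8.1% of all genes were. In UM-UC-3, 10 of 63 were higher and 13 lower by the q-value, where 22.7% and 18.8% of all genes were. After centring, partner genes numbered 9 higher and 1 lower in A-375 (7 and 2 before) and 6 and 10 in UM-UC-3 (8 and 10 before). Over all genes the UM-UC-3 split went from 2260 higher and 1885 lower to 2037 and 2106 after centring. The UM-UC-3 mitochondrial minus cytosolic value was -0.11 without TXN2, -0.11 without PRDX5 and -0.49 by means; other memberships moved it by less than the median standard error of the members. The implied UM-UC-3 control level of TXN2 was 2974 with 4 controls and 3575 with 1. The core GGAA was found for 6 of 7 members, against 1 for CCGGAAG, where 95.5% and 10.3% of all windows held them. Depth per library is unknown, and low counts limit PRDX2 and ALDH1L2 in UM-UC-3.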

Other observations

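The promoter window of PRDX2 stood apart from those of the other members in its lack of GGAA. It held no GGAA on either strand, while 95.5% of all windows held at least 1. It also held 46 CG pairs in 300 bases, the most of the 11 member windows, where the median over all 35116 windows was 14. The other member windows ran from 4 (TXNRD2) to 35 (PRDX4), with 34 for TXN, so many CG pairs were not particular to PRDX2. The window of THSD8, whose start lies 172 bases from that of PRDX2 on the opposite strand in GENCODE 29, overlaps it and held 42 CG pairs. DNA methylation was not measured in these data.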
